A study of Mus musculus with 5 samples.

Results

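The genes described here are 9 interferon-stimulated genes of the mouse intestinal epithelium: Isg15, Usp18, Irf7, Ifit1, Ifit2, Ifit3, Ifit1bl1, Rsad2 and Oasl2. They are 9 of the 27933 gene symbols in the count tables, all 9 were found there by symbol, and they were chosen because in these same cells they had led 1 enterocyte state. Their levels across cell types are therefore given as descriptions, without a test. The cells were ileal (distal small intestine), from C57BL/6 animals 8 to 12 weeks old, and were profiled by droplet single-cell RNA sequencing, which counts tagged transcript 3' ends (unique molecular identifiers, UMIs). Mice of 3 libraries (sham 1, 2 and 3) had sham surgery, and mice of 2 libraries (resection 1 and 2) had small bowel resection (SBR), in which part of the small bowel is cut out and the ends are rejoined. No transgene or drug is named for either group, and the labels do not say how many animals a library holds or how long after surgery it was taken.

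Interferons are secreted proteins that bind receptors on the cell surface and act through JAK kinases, and the signal ends at a DNA element in the promoters of interferon-stimulated genes. Epithelial cells of the intestine respond mainly to type III interferon (lambda), which limits enteric viruses, and can also respond to type I and type II interferon. Isg15 is a ubiquitin-like protein that is attached to other proteins, Usp18 removes it and also dampens the type I receptor, and Irf7 is a transcription factor that amplifies interferon production. Of the Ifit proteins, Ifit1 binds RNA that lacks the marks of the cell's own messenger RNA. Rsad2 (viperin) makes an antiviral nucleotide, and Oasl2 belongs to the oligoadenylate synthetase family.

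On GRCm38, Isg15 lies on the minus strand at chr4:156199424-156200818, Rsad2 on the minus strand at chr12:26442746-26456452, Oasl2 on the plus strand at chr5:114896936-114912234, Usp18 on the plus strand at chr6:121245906-121270917 and Irf7 on the minus strand at chr7:141262706-141266481. The 4 Ifit members are neighbours on chromosome 19: Ifit2 at chr19:34550694-34576419, Ifit3 at chr19:34583531-34588731, Ifit1bl1 at chr19:34592891-34601956 and Ifit1 at chr19:34640871-34650009, with Ifit1bl1 on the minus strand and the others on the plus strand. Ifit3 and its near copy Ifit3b are hard to separate: 51.2% of the 50-base windows of the Ifit3 transcript also occur elsewhere, in Ifit3b, and in the last 500 bases the share was 14.9%, so the Ifit3 values are uncertain. For Ifit1 and Ifit1bl1 the shares of such windows were 7.13% and 6.60%, and in the last 500 bases 0.0% and 9.09%. The gene Gm44148 overlaps Usp18 and Phrf1 overlaps Irf7, each on the opposite strand.

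Some of the members share letters in their promoters, and 4 of the 5 promoters found with such a shared run are shown, without that of Ifit3. Each is the run of 160 bases just before a RefSeq transcription start (GRCm38.p6), read 5' to 3' on the gene's own strand. For Ifit1bl1, 1 of its 2 listed starts is shown. Matches to GAAA, any 2 bases and GAAA again, on either strand, are in capitals. This pattern is the core of the interferon-stimulated response element.
Isg15, minus strand, chr4:156200819-156200978: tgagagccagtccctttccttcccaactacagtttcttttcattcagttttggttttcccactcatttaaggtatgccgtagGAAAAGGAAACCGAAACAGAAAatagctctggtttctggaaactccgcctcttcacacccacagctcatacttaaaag
Ifit1, plus strand, chr19:34640729-34640888: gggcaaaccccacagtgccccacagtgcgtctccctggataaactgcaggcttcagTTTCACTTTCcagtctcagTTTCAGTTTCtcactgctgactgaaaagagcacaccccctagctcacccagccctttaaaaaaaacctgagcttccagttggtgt
Ifit1bl1, minus strand, chr19:34601969-34602128: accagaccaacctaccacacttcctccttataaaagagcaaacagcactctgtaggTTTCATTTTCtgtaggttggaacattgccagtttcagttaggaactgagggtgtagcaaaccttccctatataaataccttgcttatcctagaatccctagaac
Rsad2, minus strand, chr12:26456453-26456612: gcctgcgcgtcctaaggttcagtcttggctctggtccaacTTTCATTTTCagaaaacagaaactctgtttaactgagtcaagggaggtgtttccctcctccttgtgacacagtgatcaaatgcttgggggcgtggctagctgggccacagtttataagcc

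The Isg15 run holds 3 matches that overlap one another, starting 78, 72 and 66 bases before the transcription start, and the Ifit1 run holds 2. Ifit1bl1 and Rsad2 hold 1 match each, starting 104 and 120 bases before the start. Searched over 250 bases upstream, Ifit3 holds 2 matches, and no match was found for Ifit2, Oasl2 and Irf7. Ifit2 and Ifit1bl1 have 2 listed starts each, and the result for each rests on 1 of them. Counted with 1 start per member, 5 of the 8 members with an entry in the promoter table hold a match. Of all 32851 promoters of the same length, which may include several starts of a gene, 978 do, or 2.98%. The table has no entry for Usp18. A match describes letters only, and no binding was measured here.

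The 5 libraries held 1402 to 7233 cells with a median of 4541 to 6239.5 UMIs per cell, and 18235 of 19404 cells passed the filters, 17785 of them epithelial by marker genes. Classes were named by clustering without the 9 members and without the genes of the interferon pathway list, so no cluster was built on them. The libraries fell into a pair of sets that cut across the surgery groups: sham 1 and resection 1 shared 34.9% of their cluster composition, sham 2, sham 3 and resection 2 shared 46.0% to 48.7%, and libraries of different sets shared 3.96% to 6.24%. Values are therefore also given within each set, and each set was defined from the data. Different clusters thus hold most of the enterocyte-like class in different libraries. Between 6 and 47 cell barcodes were shared by any 2 libraries. The T cell-like class held 29, 112 and 39 cells in the sham libraries and 32 and 238 in the resection libraries. No cluster was tuft-like, enteroendocrine-like, B cell-like or myeloid-like. The stem-like class had 0 cells in sham 1 and 2 in resection 1, so stem-like levels are given for the other 3 libraries.

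Most members were highest in enterocyte-like cells, the mature absorptive cells, and lowest in stem-like and Paneth-like cells. The summed level of the 9 members, in CPM (UMIs scaled to a common class total), was 278 to 581 in enterocyte-like cells with a median of 380 over the 5 libraries. Goblet-like cells followed with 197 to 491 (median 273), T cell-like cells with 164 to 461 (median 185), and immature enterocyte-like cells with 99.4 to 186 (median 142). Cycling-like cells had 56.9 to 153, Paneth-like cells 31.8 to 74.9 and stem-like cells 30.7 to 39.0. The ranges of neighbours in this order overlapped throughout, while the enterocyte-like range lay wholly above those of immature enterocyte-like, cycling-like, Paneth-like and stem-like cells.

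Among the ubiquitin-like system and its regulators, Isg15 had 65.0 to 129 CPM in enterocyte-like cells, 9.82 to 42.9 in immature enterocyte-like cells, 5.69 to 20.7 in cycling-like cells and 4.23 to 11.8 in Paneth-like cells. Goblet-like cells had 30.6 to 88.3 CPM of Isg15 and T cell-like cells 36.6 to 149, both overlapping the enterocyte-like range. Irf7 was the member with the broadest presence: 68.0 to 152 CPM in enterocyte-like, 43.4 to 211 in goblet-like, 42.4 to 81.4 in T cell-like and 24.7 to 38.8 in immature enterocyte-like cells, with 8.19 to 31.5 even in Paneth-like cells. Usp18 was rare, with 3.07 to 5.69 CPM in enterocyte-like cells and 0.364 to 1.25 in immature enterocyte-like cells, and it was at 0 UMIs in the stem-like cells of every library that had them.

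Among the antiviral effectors, Ifit1 had 36.0 to 53.9 CPM in enterocyte-like cells, above every library's level in immature enterocyte-like (5.71 to 12.8), cycling-like (1.31 to 12.4), Paneth-like (2.74 to 6.76) and stem-like cells (1.08 to 4.27). Rsad2 had 8.59 to 22.7 CPM in enterocyte-like cells and 1.45 to 6.11 in immature enterocyte-like cells. Oasl2 had 28.4 to 75.8 and 6.99 to 19.98 CPM in the same 2 classes. Ifit3 was low, at 5.03 to 14.5 CPM in enterocyte-like cells. Ifit2 was close to absent, with 80 UMIs over all epithelial cells of the 5 libraries against 2934 for Ifit1. Its median order over classes, led by cycling-like cells at 0.880 CPM, rests on 0 to 4 UMIs per library in that class.

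Ifit1bl1, an Ifit1 paralogue between Ifit3 and Ifit1 on the chromosome, followed another order. It was higher in enterocyte-like than in immature enterocyte-like cells in 2 of the 5 libraries, where each of the other 8 members was higher in all 5. Enterocyte-like cells had 78.8 CPM in sham 1, 27.0 in sham 2, 267 in sham 3, 26.7 in resection 1 and 58.3 in resection 2. Immature enterocyte-like cells had 51.9, 37.8, 84.6, 40.4 and 86.9 CPM in the same order. Sham 3 stood far above the other 4 libraries in enterocyte-like cells, whereas in immature enterocyte-like cells sham 3 and resection 2 lay side by side at the top. In cycling-like cells Ifit1bl1 had 19.4 to 31.1 CPM, above its range in stem-like (10.2 to 17.3) and Paneth-like cells (1.49 to 11.8). Irf7 was also present in cycling-like cells, at 10.1 to 51.8 CPM.

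**Figure D1:**
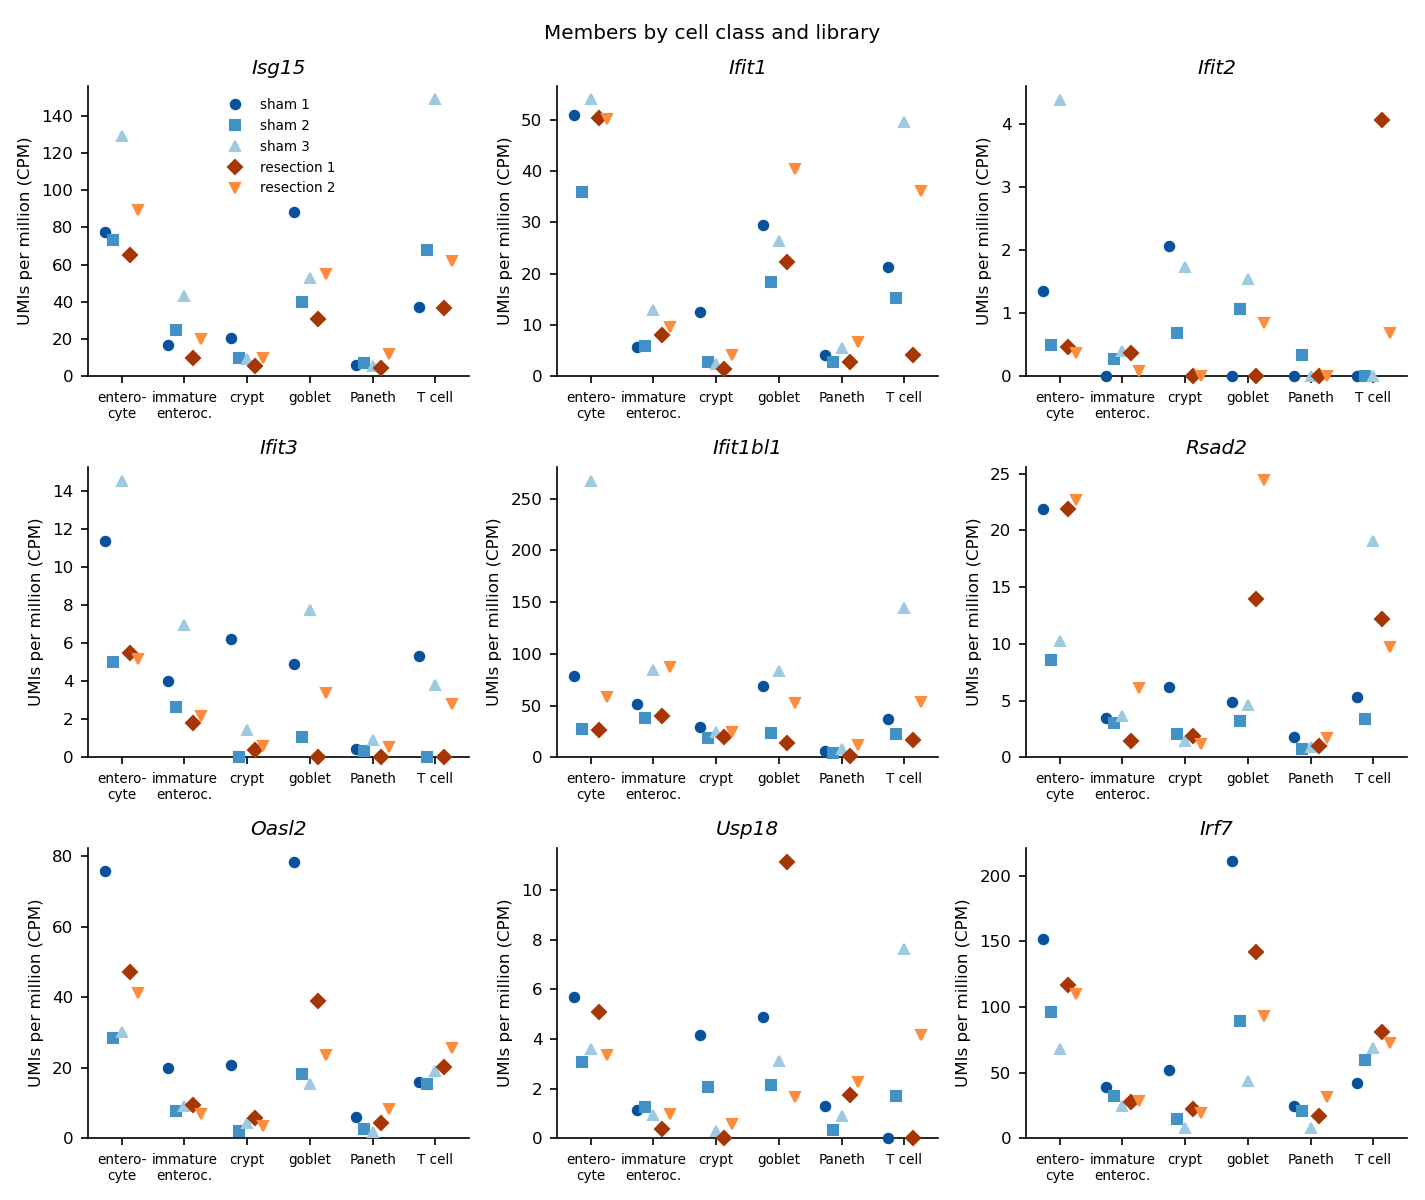
Level of each member (CPM within the class, linear axis, own scale per panel) in 6 cell classes, 1 point per library; crypt pools stem-like and cycling-like cells. Isg15, Ifit1, Rsad2, Oasl2 and Irf7 stand higher in enterocyte-like than in immature enterocyte-like, crypt and Paneth-like cells in all 5 libraries, and Ifit1bl1 of sham 3 stands apart at 267 CPM in enterocyte-like cells.

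Shares of cells with a UMI depend on depth, so they were compared after every cell had been thinned to 2000 UMIs. No cell was left out by this, since the shallowest had 2354. Isg15 was then detected in 12.4%, 10.3% and 17.6% of enterocyte-like cells in sham 1, 2 and 3 and in 9.15% and 12.9% in resection 1 and 2. In Paneth-like cells, which had the lowest median level of Isg15, its share was 0.568% to 3.46%. Free RNA in a droplet can add UMIs to cells that do not express a gene, thinning does not remove it, and its amount was not estimated. Before thinning these shares were 18.1% to 33.2% in enterocyte-like cells, at a median of 3961.5 to 5864 UMIs, and 5.08% to 12.1% in Paneth-like cells, at a median of 5698.5 to 19452 UMIs. Irf7 was detected in 13.4% to 24.1% of thinned enterocyte-like cells against 0.847% to 8.84% of Paneth-like cells. For Usp18 the share was 0.444% to 0.941% in enterocyte-like cells and 0.0% to 0.465% in Paneth-like cells, so the ranges overlap for this rare transcript.

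The members were detected together in a small number of cells. A cell was called interferon-high when at least 4 of the 9 members had a UMI after thinning to 2000 UMIs. Of 17785 epithelial cells, 12373 had none of the 9, 3982 had 1, 987 had 2, 274 had 3, 98 had 4, 48 had 5, 13 had 6 and 10 had 7, and no cell had 8 or 9. The class is therefore a cut on a graded count, with 274 cells just below it and 98 just at it. In all, 169 epithelial cells (0.9502%) were interferon-high, and 153 of these were enterocyte-like.

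Interferon-high cells made up 1.59%, 0.516% and 1.35% of epithelial cells in sham 1, 2 and 3 (20, 19 and 37 cells) and 0.988% and 0.882% in resection 1 and 2 (36 and 57 cells). The exact (Clopper-Pearson) 95% intervals, which cover counting error only, were 0.977 to 2.45, 0.311 to 0.805 and 0.951 to 1.85 for sham and 0.693 to 1.36 and 0.669 to 1.14 for resection. The resection libraries lay inside the sham range. Sham libraries averaged 1.15% ± 0.565 (SD, n = 3) and resection libraries 0.935% ± 0.0747 (SD, n = 2). The difference of -0.218 points was smaller than the sham spread. Within the sets the difference was -0.607 points (resection 1 against sham 1) and -0.0505 points (resection 2 against sham 2 and 3). Without sham 1 it was 0.00238 points, so its direction rests on that library. Without thinning the shares were 6.06%, 2.01% and 6.56% for sham and 4.12% and 3.13% for resection.

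Within enterocyte-like cells sham 1 to 3 had shares of 2.90%, 0.889% and 2.42%, and the resection libraries 1.54% and 1.497%. Of the immature enterocyte-like cells, 11 of 5107 were interferon-high, 7 of them in sham 3. Goblet-like cells held 4 of 552. Crypt cells, which pool the stem-like and cycling-like classes, held 1 of 1564, and Paneth-like cells 0 of 1005. In the single libraries a count of 0 still allowed a Paneth-like share of up to 1.41% to 3.08%, the upper ends of the 95% intervals. Among T cell-like cells 3 of 450 were interferon-high. The enterocyte-like cells of every library thus held interferon-high cells, in both surgery groups and in both sets.

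**Figure D2:**
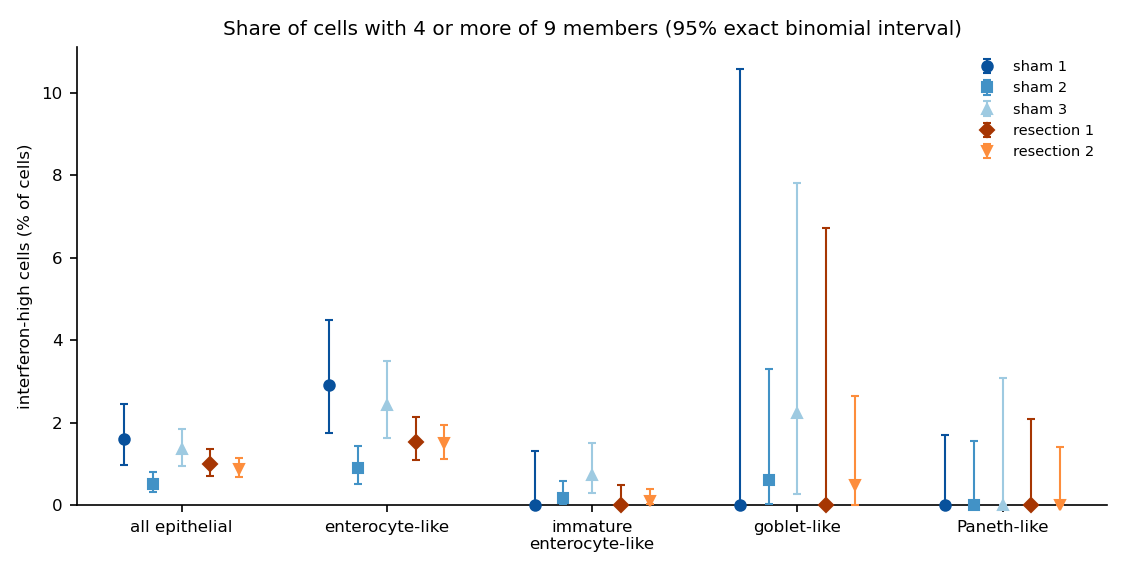
Share of interferon-high cells (percent of cells, linear axis) by class and library; points are libraries and bars are exact 95% binomial intervals, which cover counting error only. Enterocyte-like cells stand between 0.889% and 2.90%, the resection libraries at 1.54% and 1.497% lie between the sham libraries, and Paneth-like cells are at 0 in all 5 libraries with upper bounds of 1.41% to 3.08%.

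Interferon-high cells were somewhat shallower than absorptive cells with no member detected in all 5 libraries, most of all in sham 2, while their mitochondrial share lay above in 3 libraries and below in the other two. Their median UMI count, over enterocyte-like and immature enterocyte-like cells, was 4853, 3222 and 5926 for sham 1 to 3 and 5174.5 and 3963 for the resection libraries, against 5050, 4482, 5996.5, 5326.5 and 4489 in cells with none of the members. Of the 169 interferon-high epithelial cells 153 were enterocyte-like, and the 2 sets of cells were not matched for class. The whole enterocyte-like class had medians of 4887, 3961.5, 5864, 5055 and 3996.5 UMIs in the same order. Against these, interferon-high cells were deeper in sham 3 and resection 1 and shallower in the other libraries. The median mitochondrial share of interferon-high cells was 13.8%, 9.35%, 7.84%, 11.9% and 8.80% in the same order, against 13.9%, 8.60%, 7.39%, 11.9% and 9.35% in cells with none of the members. Among barcodes removed as doublets 0.694% were interferon-high, against 0.943% of the cells kept. B cell, endothelial and fibroblast markers were at 0 in them in every library, myeloid markers at 0.0 to 4.95 CPM, and T cell markers at 24.8 to 147 CPM against 28.7 to 117 CPM in cells with none of the members. Summed transcripts of H2-Aa, H2-Ab1, H2-Eb1 and Cd74, which serve antigen presentation by major histocompatibility complex class II, were higher in interferon-high cells than in cells with none of the members in all 5 libraries: 1322 against 515 CPM in sham 1, 1194 against 492 in sham 2, 132 against 62.6 in sham 3, 263 against 206 in resection 1 and 589 against 300 in resection 2. Cells with some members but below the limit of 4 stood at 908, 647, 92.6, 284 and 360 CPM in the same order, above the cells with none in all 5 libraries and in resection 1 also above the interferon-high cells. Class and villus position were not matched in this comparison, and their part in the difference was not tested.

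The members differed in how far they were confined to interferon-high cells. These cells were 0.591% to 2.04% of the absorptive cells of a library, and they held 23.5% to 56.4% of its Usp18 UMIs, 16.1% to 38.8% of its Ifit3 UMIs, 14.1% to 29.4% of its Isg15 UMIs and 15.8% to 26.4% of its Ifit1 UMIs. The range for Rsad2 was 8.70% to 32.2% and for Oasl2 7.67% to 19.2%. Of these genes Irf7 had the lowest range, 3.15% to 9.37%, and Ifit1bl1 had 7.11% to 14.8%. The Ifit1bl1 share lay above that of Oasl2 in sham 1 (14.7% against 11.4%) and in resection 1 (14.8% against 11.2%). It lay below that of Oasl2 in sham 2, sham 3 and resection 2. Since a cell counts as interferon-high through these same genes, a share above that of the cells follows in part from the definition.

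Each gene was also set against the other 8 members. Isg15 was detected in 54.8% to 76.7% of cells with at least 3 of the other members and in 3.85% to 7.08% of cells with none of them. Irf7 was detected in 27.5% to 57.7% and 6.49% to 15.4%, so it was the member most often seen alone in 4 of the 5 libraries. In sham 3 that place was taken by Ifit1bl1, found in 17.3% of cells with no other member and in 71.1% of cells with at least 3. Usp18 was found in 6.49% to 8.77% of cells with at least 3 others and in 0.0754% to 0.363% of cells with none. By the median over libraries the closest pair was Isg15 and Ifit1, with a Pearson r of 0.28 to 0.46 over the absorptive cells of a library. In sham 1 Isg15 was closer to Irf7 (0.38) and to Oasl2 (0.36) than to Ifit1 (0.35). Correlations of this size in sparse counts depend on depth and are given as description only.

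Members also differed by a score of villus position. It set 8 genes known from the villus tip, such as Ada, Nt5e and Krt20, against 8 known from the lower villus. The latter included Reg3b, Gsdmc2 and Lypd8. Absorptive cells of each library, enterocyte-like and immature enterocyte-like together, were ranked by it and cut into 3 equal parts, called lower, middle and upper. Gsdmc2, Lypd8 and Reg3b were also among the leading genes of immature enterocyte-like clusters, and Ada of an enterocyte-like one. Class was not matched between the parts, so the gradient overlaps with the class difference above, and the part of class in it was not tested. Isg15 was higher in the upper than in the lower part by 2.83, 3.20 and 2.25 times in sham 1, 2 and 3 and by 3.40 and 4.76 times in resection 1 and 2, and it increased in order through the 3 parts in all 5 libraries. Ifit1, Oasl2 and Irf7 also increased in order in all 5, with ratios of 2.35 to 7.21, 2.56 to 5.73 and 2.80 to 4.501. Rsad2 was higher in the upper part in all 5 by 2.21 to 7.86 times, and increased in order in 4. Ifit2, Ifit3 and Usp18 were higher there in all 5 as well, by 1.10 to 2.16 times for Ifit3 and 1.07 to 7.78 times for Usp18. They increased in order in only 2, 2 and 3 libraries. Ifit2 had 5, 6 and 42 UMIs in the absorptive cells of sham 1 to 3 and 8 and 7 in resection 1 and 2. Its direction is therefore uncertain, and sham 1 gives no ratio, since its lower part held none.

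Ifit1bl1 did not follow this gradient. Its upper part stood at 0.98, 0.64 and 2.03 times the lower part in sham 1, 2 and 3 and at 0.53 and 0.62 times in resection 1 and 2. It was thus lower toward the tip in sham 2, resection 1 and resection 2, nearly level in sham 1, and higher toward the tip in sham 3 alone. The sum of the other 8 members went from 172 to 465 CPM in sham 1, from 92.9 to 305 in sham 2, from 128 to 330 in sham 3, from 112 to 385 in resection 1 and from 87.1 to 436 in resection 2. The share of interferon-high cells was higher in the upper than in the lower part in all 5 libraries, but on few cells. It went from 0.0984% to 1.28% in sham 2 (1 and 13 cells) and from 1.29% to 3.54% in sham 1 (4 and 11 cells). The lower and upper parts held 5 and 19 such cells in sham 3, 6 and 15 in resection 1 and 4 and 38 in resection 2. Their 95% intervals overlapped in sham 1, sham 3 and resection 1. Cells of the upper part were shallower, with a median of 3623 to 5531 UMIs against 4982 to 6351.5 in the lower part.

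**Figure D3:**
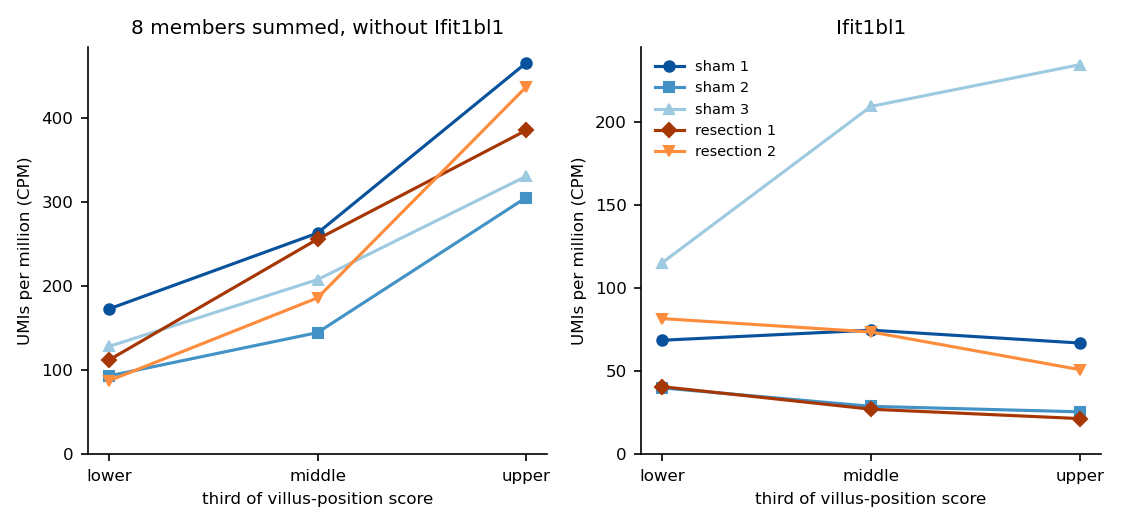
Level (CPM, linear axis) of the 8 members other than Ifit1bl1, summed, and of Ifit1bl1, in the lower, middle and upper part of absorptive cells ranked by villus-position genes; 1 line per library. The sum of the 8 other members climbs in every library, whereas Ifit1bl1 climbs in sham 3 alone, to 235 CPM.

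In sham 3, 1 cluster held 1043 of the 1155 enterocyte-like cells and 2315 of their 2374 Ifit1bl1 UMIs. That cluster also held 59 cells of resection 2, and its leading genes were Ccl20, Duoxa2, Adm and Nos2 beside Ifit1bl1 itself. Ifit1bl1 stood at 278 CPM in its sham 3 cells and at 233 CPM in its resection 2 cells. In the other enterocyte-like clusters with at least 20 cells, Ifit1bl1 was 92.4 to 162 CPM in sham 3 and 46.8 to 57.5 CPM in resection 2. Sham 2 had 26.0 to 58.8 CPM there, so sham 3 stood above both libraries outside the first cluster as well. Sham 3 and resection 2 both carried cells of the first cluster, in very different numbers. Of its 1043 sham 3 cells, 21 (2.01%) were interferon-high. In the other enterocyte-like clusters with at least 20 sham 3 cells, these were 4 of 25 (16.0%), 3 of 34 (8.82%) and 0 of 53. No batch or date is given for the libraries, so a property of the mice and a property of the preparation cannot be told apart.

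The next comparison asked whether resection changes these genes. No member passed the adjusted threshold between sham and resection by edgeR's quasi-likelihood test, in all epithelial cells, enterocyte-like, immature enterocyte-like or crypt cells. All 9 were tested in all epithelial cells and in enterocyte-like cells. The filter on low counts left 7 in immature enterocyte-like cells (without Ifit2 and Usp18) and 5 in crypt cells (Isg15, Ifit1, Ifit1bl1, Oasl2 and Irf7). Over all genes the test called 0 of 11717 in all epithelial cells (0.0%), 1 of 9979 in enterocyte-like cells (0.01%), 0 of 10351 in immature enterocyte-like cells (0.0%) and 0 of 9784 in crypt cells (0.0%). The numbers of genes below 0.05 without adjustment were 338 (2.88%), 610 (6.11%), 179 (1.73%) and 104 (1.06%), against 1, 2, 1 and 0 members in the same order. DESeq2 called 36, 81, 7 and 2 genes, none of them a member. In sums over all epithelial cells, fewer cells of a type and less RNA per cell cannot be told apart, and enterocyte-like cells were 42.1% to 52.2% of the epithelial cells of the sham libraries and 64.2% and 55.8% of those of resection 1 and 2. Nothing in the labels says that the libraries come from separate animals, so the p-values measure the spread between these libraries, which may be technical.

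In enterocyte-like cells, levels for the surgery comparison are CPM on totals scaled by the trimmed mean of M-values (TMM). Rsad2 was 18.5, 9.55 and 11.1 CPM in sham 1 to 3 and 19.9 and 24.4 in resection 1 and 2. Both resection libraries stood above every sham library, but only just above sham 1. The log2 fold change was 0.78 ± 0.32 (SE), with an adjusted p of 0.792 (unadjusted p = 0.0428), and the log2 change within the sets was 0.10 for resection 1 and 1.20 for resection 2. Rsad2 was the single member above the sham range in this class, 1 of 9, where 11.2% of all genes tested lay above it.

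Ifit3 and Ifit2 were the members below the sham range in enterocyte-like cells, 2 of 9, where 9.16% of all genes tested lay below. Ifit3 was 9.61, 5.60 and 15.8 CPM in sham 1 to 3 and 4.98 and 5.57 in resection 1 and 2, so that sham 2 and resection 2 nearly touched. Its log2 fold change was -0.97 ± 0.43 (SE, adjusted p = 0.830), with -0.88 and -0.71 within the sets and -0.50 without sham 3. Ifit2 was 1.14, 0.546 and 4.77 CPM in sham and 0.421 and 0.393 after resection, from 5, 4 and 39 UMIs against 6 and 6. Its log2 fold change of -2.43 ± 0.92 (SE, adjusted p = 0.751) thus rested largely on sham 3, and the gene did not pass the filter once sham 1 or sham 3 was left out.

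Ifit1bl1 had the widest spread of the members among sham libraries. Its level was 66.6 CPM in sham 1, 30.03 in sham 2, 291 in sham 3, 24.3 in resection 1 and 62.8 in resection 2. Sham averaged 129 ± 141 (SD, n = 3) and resection 43.5 ± 27.2 (SD, n = 2), and the groups overlapped. Its log2 fold change was -1.57 ± 0.91 (SE, adjusted p = 0.933), and without sham 3 it was -0.14.

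The remaining members of enterocyte-like cells showed groups that overlapped. Isg15 was 65.7, 81.2 and 140 CPM across sham 1, 2 and 3 and 59.2 and 95.9 across resection 1 and 2, a log2 fold change of -0.31 ± 0.39 (SE). Irf7 was 129, 107 and 73.9 CPM in sham and 106 and 118 in the resection libraries, with a log2 fold change of 0.12 ± 0.30 (SE). In sham 3, which had the most Isg15, Ifit3 and Ifit1bl1, Irf7 was the lowest of the 5 libraries. Ifit1 was 43.0, 40.0 and 58.6 CPM in sham and 45.8 and 54.0 in the resection libraries, with a log2 fold change of 0.08 ± 0.27 (SE). Oasl2 (0.03 ± 0.35) and Usp18 (0.04 ± 0.32) also had log2 fold changes near 0, with Oasl2 highest in sham 1 at 64.1 CPM. The adjusted p was 0.997 for each of these 5 genes.

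Summed over the 9 members, enterocyte-like cells had 402, 309 and 632 CPM in sham 1 to 3 and 308 and 409 in resection 1 and 2, a mean of 448 ± 166 (SD, n = 3) against 359 ± 71.7 (SD, n = 2). Without Ifit1bl1, a sum added after the values were seen, the levels were 335, 279 and 341 in sham and 284 and 347 after resection, a mean of 319 ± 34.3 against 315 ± 44.4. The log2 ratio of the group means was -0.32 with and -0.02 without Ifit1bl1, and 0.01 for all 9 without sham 3. No p is given for these sums, because the members were chosen with the data in view.

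**Figure D4:**
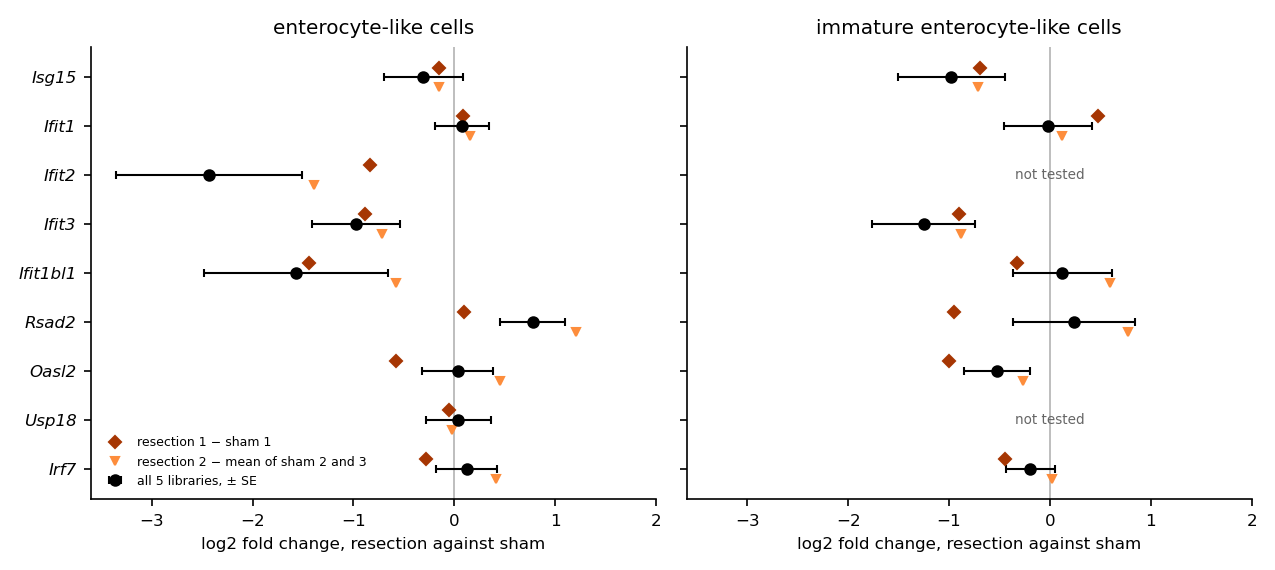
Log2 fold change of each member, resection against sham, in enterocyte-like and immature enterocyte-like cells. Black points are the edgeR estimates over 5 libraries with their SE, and coloured points are the differences within each set of libraries on the log2(CPM + 0.5) scale, which pulls the rare Ifit2 toward 0; no estimate passed the adjusted threshold.

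In immature enterocyte-like cells most members had negative log2 fold changes, none past the threshold. Isg15 was 14.0, 27.9 and 46.9 CPM in sham 1 to 3 and 8.49 and 22.0 in resection 1 and 2. Its log2 fold change was -0.98 ± 0.53 (SE, adjusted p = 0.9999), with -0.69 and -0.71 within the sets. It was -0.47 without resection 1 and -1.85 without resection 2. Ifit3 was 3.38, 2.999 and 7.61 CPM in sham and 1.57 and 2.39 in the resection libraries, with a log2 fold change of -1.25 ± 0.51 (SE) that was -0.63 without sham 3. Oasl2 was 16.9, 8.84 and 10.0 CPM in sham and 8.17 and 7.71 in the resection libraries, with a log2 fold change of -0.52 ± 0.33 (SE). The groups overlapped for Isg15 and for the other 4 members tested. These 4 had log2 fold changes of -0.19 ± 0.24 (SE) for Irf7, -0.02 ± 0.44 (SE) for Ifit1, 0.12 ± 0.49 (SE) for Ifit1bl1 and 0.24 ± 0.60 (SE) for Rsad2. Ifit3 and Oasl2 lay below the sham range, 2 of the 7 members tested, where 5.06% of all genes tested did. None of the 7 lay above it, where 6.52% of all genes did. The line between these classes depends on the clustering: a coarser one named enterocyte-like a cluster led by Gsta1, Reg3a and Fabp6, which also lead an immature enterocyte-like cluster of 1018 cells here.

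In crypt cells none of the 5 members tested lay outside the sham range, where 5.56% of all genes tested lay above it and 4.68% below. The sum of the 9 was 135, 58.2 and 55.8 CPM for sham 1 to 3 and 50.7 and 69.1 for the resection libraries. Sham 1 was the high library here, and its crypt class was 73 cycling-like cells with no stem-like cell. The crypt class of resection 1, the lowest library, held 328 cycling-like cells of 330. Within cycling-like cells alone the sum was 135 CPM in sham 1 and 50.5 to 79.7 CPM in the other libraries. In all epithelial cells 1 of 9 members, Ifit2, lay below the sham range (6.32% of all genes) and none above it (8.04%). No member passed the adjusted threshold under any alternative tried in the 4 classes, and the lowest adjusted p among them was 0.164, for Ifit1bl1 in immature enterocyte-like cells.

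Whether the surgery difference itself differed between enterocyte-like and immature enterocyte-like cells was tested with the library as a block, a test added after the values were seen. It called 6 of 10698 genes (0.0561%), none of them a member. The log2 difference of the 2 changes was 0.68 ± 0.19 (SE, adjusted p = 0.162) for Oasl2, 0.72 ± 0.23 (SE, adjusted p = 0.218) for Isg15 and 0.40 ± 0.18 (SE, adjusted p = 0.427) for Irf7. For Ifit1bl1 it was -1.22 ± 0.44 (SE, adjusted p = 0.306). For the remaining members it was 0.73 ± 0.49 (Rsad2), 0.69 ± 0.64 (Usp18), 0.31 ± 0.34 (Ifit3), 0.12 ± 0.25 (Ifit1) and -1.68 ± 1.34 (Ifit2), with adjusted p of 0.635 to 0.910. Positive values mean a more positive change in enterocyte-like cells.

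The rest of the interferon pathway was read from a list of 89 genes ordered by role, 88 of which are in the count tables. Ligands were almost undetected in epithelial cells: Ifnb1, Ifna1, Ifna2, Ifna4, Ifnl2, Ifnl3 and Ifne had 0 UMIs over 17785 cells, Ifng had 3 and Ifnk 1. Receptors were all detected, led by Ifngr1 (128 to 199 CPM over all epithelial cells) and Ifngr2 (69.7 to 110), the chains of the interferon-gamma receptor, and by Il10rb (32.8 to 47.9), which the lambda receptor shares. Its partner Ifnlr1 had 5.05 to 8.78 CPM, and the type I receptor chains Ifnar1 and Ifnar2 10.7 to 14.4 and 1.49 to 3.14. Of the sensors, the highest were Nlrp6 (83.9 to 108 CPM), an inflammasome protein, and the RNA helicases Ifih1 (22.8 to 36.9) and Ddx58 (14.4 to 20.8).

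Among signalling genes the transcription factors Irf8 (55.4 to 83.4 CPM) and Irf1 (43.3 to 85.7) and the kinase Jak2 (41.3 to 56.0) were highest. Inhibitors were led by Irf2 (30.9 to 45.4 CPM), Usp25 (24.2 to 38.9) and Socs3 (10.2 to 26.4). Of the other targets the highest were Ifi35 (78.5 to 153 CPM), Lgals3bp (61.0 to 96.5), a secreted glycoprotein, and the ubiquitin ligase Trim25 (45.3 to 91.7). Of the genes induced mostly by interferon-gamma they were the immunoproteasome subunits Psmb8 (83.7 to 146 CPM) and Psmb9 (30.8 to 53.2) and the peptide transporter Tap1 (12.1 to 23.1). None of the list's 9 ligands passed the filter on low counts.

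No gene of the list passed the adjusted threshold in any of the 4 classes (74 tested in all epithelial cells, 67 in enterocyte-like, 65 in immature enterocyte-like and 52 in crypt cells, with 4, 3, 4 and 2 below 0.05 without adjustment). In enterocyte-like cells 9 of 67 lay above the sham range and 5 below, 13.4% and 7.46%, near the 11.2% and 9.16% of all genes tested, and the list's median log2 fold change was -0.09 against -0.02 for all genes. In immature enterocyte-like cells 1 of 65 lay above and 10 below, 1.54% and 15.4%, against 6.52% and 5.06% of all genes, and the medians were -0.11 and -0.01. For the genes induced mostly by interferon-gamma the median was -0.31 over 9 tested in enterocyte-like cells and -0.57 over 7 tested in immature enterocyte-like cells. These counts and medians are descriptions, with no test of the list.

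The gene of the list with the smallest unadjusted p was Ifit1bl2 in all epithelial and in crypt cells, Sp100 in enterocyte-like cells and Oas1a in immature enterocyte-like cells, all named after their values were seen. Sp100, a nuclear body protein, had a log2 fold change of 1.26 ± 0.27 (SE) in enterocyte-like cells (adjusted p = 0.314). In plain CPM over all epithelial cells, Sp100 stood at 8.03, 5.05 and 4.63 for sham and at 15.9 and 11.8 for resection. Ifit1bl2, the neighbour and paralogue of Ifit1bl1, stood on the same scale at 25.7, 34.9 and 52.8 for sham and at 83.3 and 70.9 for resection, with a log2 fold change there of 0.88 ± 0.27 (SE, adjusted p = 0.9999). Both resection libraries stood above every sham library for these 2 genes. Oas1a, an oligoadenylate synthetase, stood at 15.04, 6.502 and 7.38 for sham and at 6.04 and 3.12 for resection, both resection libraries below every sham library, with a log2 fold change in all epithelial cells of -1.29 ± 0.50 (SE, adjusted p = 0.9999). In immature enterocyte-like cells it was -1.76 ± 0.36 (SE) for Oas1a, -1.61 ± 0.42 (SE) for its relative Oas1g, -1.45 ± 0.49 (SE) for Rtp4 and -1.42 ± 0.45 (SE) for the GTPase Igtp, the 4 list genes below 0.05 there without adjustment, each with an adjusted p of 0.9999.

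The genes outside the 9 whose levels most followed the number of members detected in a cell were ranked over 933 to 5481 absorptive cells per library. The first 10 of 8871 ranked genes, leaving the members out, were Rnf213, Ddx60, Apoa1, Herc6, B2m, H2-K1, Sepp1, Apol9a, Trim30a and Clca4b. Their median Pearson r over the 5 libraries was 0.23 to 0.28, against 0.59 for Isg15, which counts toward the number itself. Rnf213 was 128 to 322 CPM in interferon-high cells and 26.3 to 54.5 in the others, and Ddx60 was 127 to 287 against 11.7 to 30.6, higher in all 5 libraries for each. Apoa1, an apolipoprotein of mature enterocytes, was 19966 to 43123 CPM against 7668 to 21977. Such correlations share depth and villus position with the members and are given without a test.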

How the data were processed

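Cells were profiled with the 10x Chromium 3' kit (v2 chemistry), and gene-barcode matrices came from Cell Ranger, per the labels' protocols, which mark its version as uncertain. The deposited matrices, 1 for each library, hold unnormalised UMI counts. The builds mm10 and GRCm38 are named in the submitters' processing notes, so GENCODE and RefSeq annotation of GRCm38 was used.

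Cells with at least 500 genes and at most 20% mitochondrial UMIs were kept, and the highest doublet scores were removed (0.8% of cells per 1000 cells, 720 in all). Counts scaled to 10000 per cell, 2000 variable genes, 30 principal components and 20 neighbours went into Leiden clustering (leidenalg 0.10.2, resolution 1). Clusters were named from markers by a scoring rule chosen after the data were seen. In 6 of the 20 clusters an enteroendocrine or tuft score was highest, and the name went to the best class with at least 3 detected markers and no more markers of another class among the 10 leading genes. UMIs were summed per library and class and tested with edgeR 4.0.16 in R 4.3.3 (quasi-likelihood F-test, TMM, filterByExpr, two-sided, Benjamini-Hochberg adjustment over all genes, threshold 0.05), with DESeq2 1.42.0 as an alternative. Levels by class, cluster, villus part and interferon-high state are plain CPM, and levels beside a surgery test are TMM-scaled CPM, except for the pathway genes, which are plain CPM. UMI counts of 3' ends were not divided by transcript length. A symbol on several rows (56 symbols) kept the row with the lowest identifier.

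The members, lists and tests were chosen with earlier results of these data known. All 9 members are given in each surgery comparison where they passed the filter, in crypt and all epithelial cells partly as counts. From the pathway list the 3 highest genes of each role are named and any past the threshold, beside genes said to be chosen after their values were seen. Both groups carry replicate numbers 1 and 2, but the labels do not say that these numbers pair libraries.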

Additional observations from a re-analysis of the deposited data

How the results depend on the processing

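The number of genes called between surgery groups depended on the method far more than any member did. In all epithelial cells it was 0, against 36 with DESeq2, 18 with no low-count filter, 3 with the library set as a term and 233 with a replicate block. In enterocyte-like cells it was 1, against 81, 75, 34 and 179 under those settings, and 0 with RLE scaling, with no doublet removal and at Leiden resolution 0.5. In immature enterocyte-like cells it was 0, against 7, 31, 8 and 161, and 1 with no doublet removal. In crypt cells it was 0, against 2 with DESeq2, 2 with no filter and 5 with the replicate block. The cause of these shifts was not tested. The block pairs libraries by number, which the labels do not state. Sham 3 has no resection library of the same number, so under the block the difference rests on sham 1 and 2 and resection 1 and 2. The block thus changes the libraries compared as well as the method. Over genes, deviations from the group mean correlated at 0.653 for number 1 and 0.391 for number 2, and with 2 resection libraries the crossed pairs give -0.653 and -0.391 by construction, so these values are no independent sign of pairing. No member was called under any of these settings. Leaving out 1 library at a time gave 0 to 3 calls in enterocyte-like cells, 0 to 1 in immature enterocyte-like cells and 0 to 1 in crypt cells.

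Without thinning, the difference in the interferon-high share was -1.26 points, and over left-out libraries it ran from -0.537 to 0.00238. For the summed members the log2 ratio with 1 library left out ran from -0.42 to 0.01004 over all epithelial cells, from -0.54 to 0.0129 for enterocyte-like cells, from -0.82 to 0.23 for the immature ones and from -0.71 to 0.0709 for the crypt.

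Of the members' log2 fold changes under the other settings, 205 kept their direction and 25 turned it, none of them past the threshold. The replicate block also takes sham 3 out of the surgery difference. For Ifit1bl1 in all epithelial cells, leaving sham 3 out with no block gave 0.13. With the replicate block the turned values were 0.63 for Ifit1 in immature enterocyte-like cells, 0.00996 and 0.0375 for Ifit1bl1 in all epithelial and crypt cells, -0.17, -0.39 and -0.0615 for Irf7 in all epithelial, crypt and enterocyte-like cells, 0.0542 for Isg15 and -0.0436 for Oasl2 in enterocyte-like cells. With the set as a term they were 0.15 for Ifit1 in immature enterocyte-like cells, 0.00314 for Oasl2 in all epithelial cells and -0.0373 for Usp18 in enterocyte-like cells. With no doublet removal they were 0.14 and 0.0335 for Ifit1 in crypt and immature enterocyte-like cells and 0.30 for Oasl2 in crypt cells. At Leiden resolution 0.5 they were 0.0289 for Ifit1 and -0.0387 for Ifit1bl1 in immature enterocyte-like cells and -0.0409 for Oasl2 in enterocyte-like cells. With a mitochondrial share up to 15% they were 0.0161 for Ifit1bl1 and 0.43 for Oasl2 in crypt cells, 0.0345 for Oasl2 and 0.0723 for Usp18 in all epithelial cells and -0.16 for Rsad2 in immature enterocyte-like cells. With no low-count filter they were 0.0221 for Oasl2 and 0.0163 for Usp18 in all epithelial cells, and with DESeq2 -0.0753 for Irf7 in crypt cells.

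With 1 library left out, ranges that crossed 0 were -1.54 to 0.17 (crypt), -0.0496 to 0.27 (enterocyte-like) and -0.38 to 0.57 (immature) for Ifit1, -1.71 to 0.13 (all epithelial), -0.47 to 0.18 (crypt) and -0.80 to 0.67 (immature) for Ifit1bl1, and -0.19 to 0.40 (all epithelial), -0.48 to 0.86 (crypt) and -0.0705 to 0.31 (enterocyte-like) for Irf7. They were -0.63 to 0.00958 (all epithelial) and -0.70 to 0.0797 (enterocyte-like) for Isg15, -0.24 to 0.55 (all epithelial), -0.92 to 0.23 (crypt) and -0.15 to 0.44 (enterocyte-like) for Oasl2, -1.50 to 0.91 (immature) for Rsad2, and -0.22 to 0.27 (all epithelial) and -0.15 to 0.20 (enterocyte-like) for Usp18. Where 1 resection library is left, it is assumed to vary like the other libraries. Low counts limit Ifit2, Ifit3 and Usp18, and 5 libraries limit every surgery comparison.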
